A study of Mus musculus with 8 samples.

Results

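The data cover the matrix metalloproteinases (genes named *Mmp*), the ADAMTS proteases (*Adamts*) and their tissue inhibitors (*Timp*) in the lungs of mice exposed to hypoxia. The members were chosen by symbol alone, as every gene named Mmp, Adamts or Timp followed directly by a number and an optional letter, which leaves out the ADAMTS-like genes. Of the 25428 probe sets on the array, 46 met this rule, with 23 *Mmp*, 19 *Adamts* and 4 *Timp* genes and 1 probe set for each gene. The tested mice, A, B, C and D, were kept at 10% oxygen for 7 days, and mice F, G, H and I stayed in normoxia. All 8 mice carried Nfat5fl/fl, an *Nfat5* gene flanked by loxP sites that was not deleted. They were males of a line crossed with SM-MHC-CreERT2 mice, in which a smooth muscle promoter drives an inducible Cre, and were given the solvent miglyol intraperitoneally for 5 days at the age of 10 to 12 weeks, with 2 to 3 weeks of recovery before the exposure. RNA of 1 lung lobe per mouse was hybridised to an Affymetrix Mouse Gene 2.0 ST array. The values are log2 intensities, on which a difference of 1 is a 2-fold change, and all differences are given as hypoxia minus normoxia.

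Metalloproteinases of the Mmp family are zinc-dependent enzymes that cleave collagens, elastin and other components of the extracellular matrix. Most are secreted as inactive precursors, while the membrane-type members stay at the cell surface and can activate others. ADAMTS proteases are secreted enzymes with thrombospondin repeats, and they trim procollagens, proteoglycans and the proteins around fibrillin microfibrils. TIMPs bind the active site of enzymes of the Mmp family and block them. The balance of enzymes and inhibitors takes part in the remodelling of the vessel wall and the airspace of the lung.

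The lung markers were present on all arrays, with a mean log2 intensity over 9 alveolar type 2 markers between 10.4 and 10.7 in hypoxia and between 10.1 and 10.5 in normoxia. Markers of other tissues differed between the lungs. The mean of 15 adipocyte markers lay between 5.77 and 6.13 in hypoxia and between 6.27 and 7.96 in normoxia, and 15 heart muscle markers averaged 5.36 to 5.54 in hypoxia and 5.66 to 6.47 in normoxia. For 15 skeletal muscle markers the hypoxic lungs lay between 3.63 and 4.59, against 6.78 in normoxic mouse F and 6.80 in normoxic mouse G, with 3.61 in mouse H and 4.27 in mouse I. Because a lobe was measured as bulk tissue, more cells of a type and more RNA per cell cannot be told apart.

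The question was which members of the 3 families differed between hypoxic and normoxic lungs. The inhibitor *Timp1*, the gelatinase *Mmp2*, the membrane-type protease *Mmp14* and the proteases *Adamts1*, *Adamts2*, *Adamts9*, *Adamts12* and *Adamts17* were higher in every hypoxic mouse than in every normoxic mouse, by 0.31 to 1.27 on the log2 scale. No member was lower in every hypoxic mouse. None of the 46 members passed an adjusted p of 0.05 in limma, a linear model with a variance shared across probe sets, with Benjamini-Hochberg adjustment over all 25428 probe sets, of which 0.0% passed. The smallest adjusted p among the members was 0.0937, for *Mmp2*. At an unadjusted p under 0.05, 9 members were higher and 0 lower in hypoxia, which is 19.6% of the members in the higher direction, against 5.34% of all probe sets higher and 3.15% lower. The 8 members with groups that do not overlap are 17.4% of the members, against 3.01% of all probe sets with every hypoxic mouse above every normoxic mouse and 1.61% with every hypoxic mouse below.

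Of the 23 *Mmp* genes, 16 had the higher mean in hypoxia and 7 the lower one, with a median difference of 0.15. In this family 2 genes were at an unadjusted p under 0.05 and the same number without overlap, each 8.7% of the family. The shares of all probe sets in the higher direction were 5.34% and 3.01%. Of the 19 *Adamts* genes, 13 had the higher mean and 6 the lower one, with a median of 0.20. Here 6 genes (31.6%) were at an unadjusted p under 0.05 and 5 (26.3%) without overlap. The shares of the 46 members were thus not spread evenly over these families, and the difference between families was not tested. All 4 *Timp* genes had the higher mean in hypoxia, with a median of 0.29, and *Timp1* alone was without overlap. Over all probe sets, 12477 had the higher mean and 12951 the lower mean in hypoxia, with a median of -0.005. For 22 members the mean over the 8 arrays was at or above the median of all probe sets, which takes in 10 *Mmp*, 9 *Adamts* and 3 *Timp* genes. Of these brighter members 21 had the higher mean in hypoxia, while the 24 dimmer members split into 12 higher and 12 lower. The mean over the 8 arrays includes the hypoxic values, so a gene raised in hypoxia can count as brighter through them. *Timp1* is such a gene, with a mean of 3.81 in normoxia and 4.96 in hypoxia. So is *Adamts6*, with 4.08 in normoxia and 4.32 in hypoxia. This split is therefore partly set by the definition of brightness. As a description, 6511 of the 12714 brighter probe sets of the whole array had the higher mean in hypoxia.

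**Figure D1:**
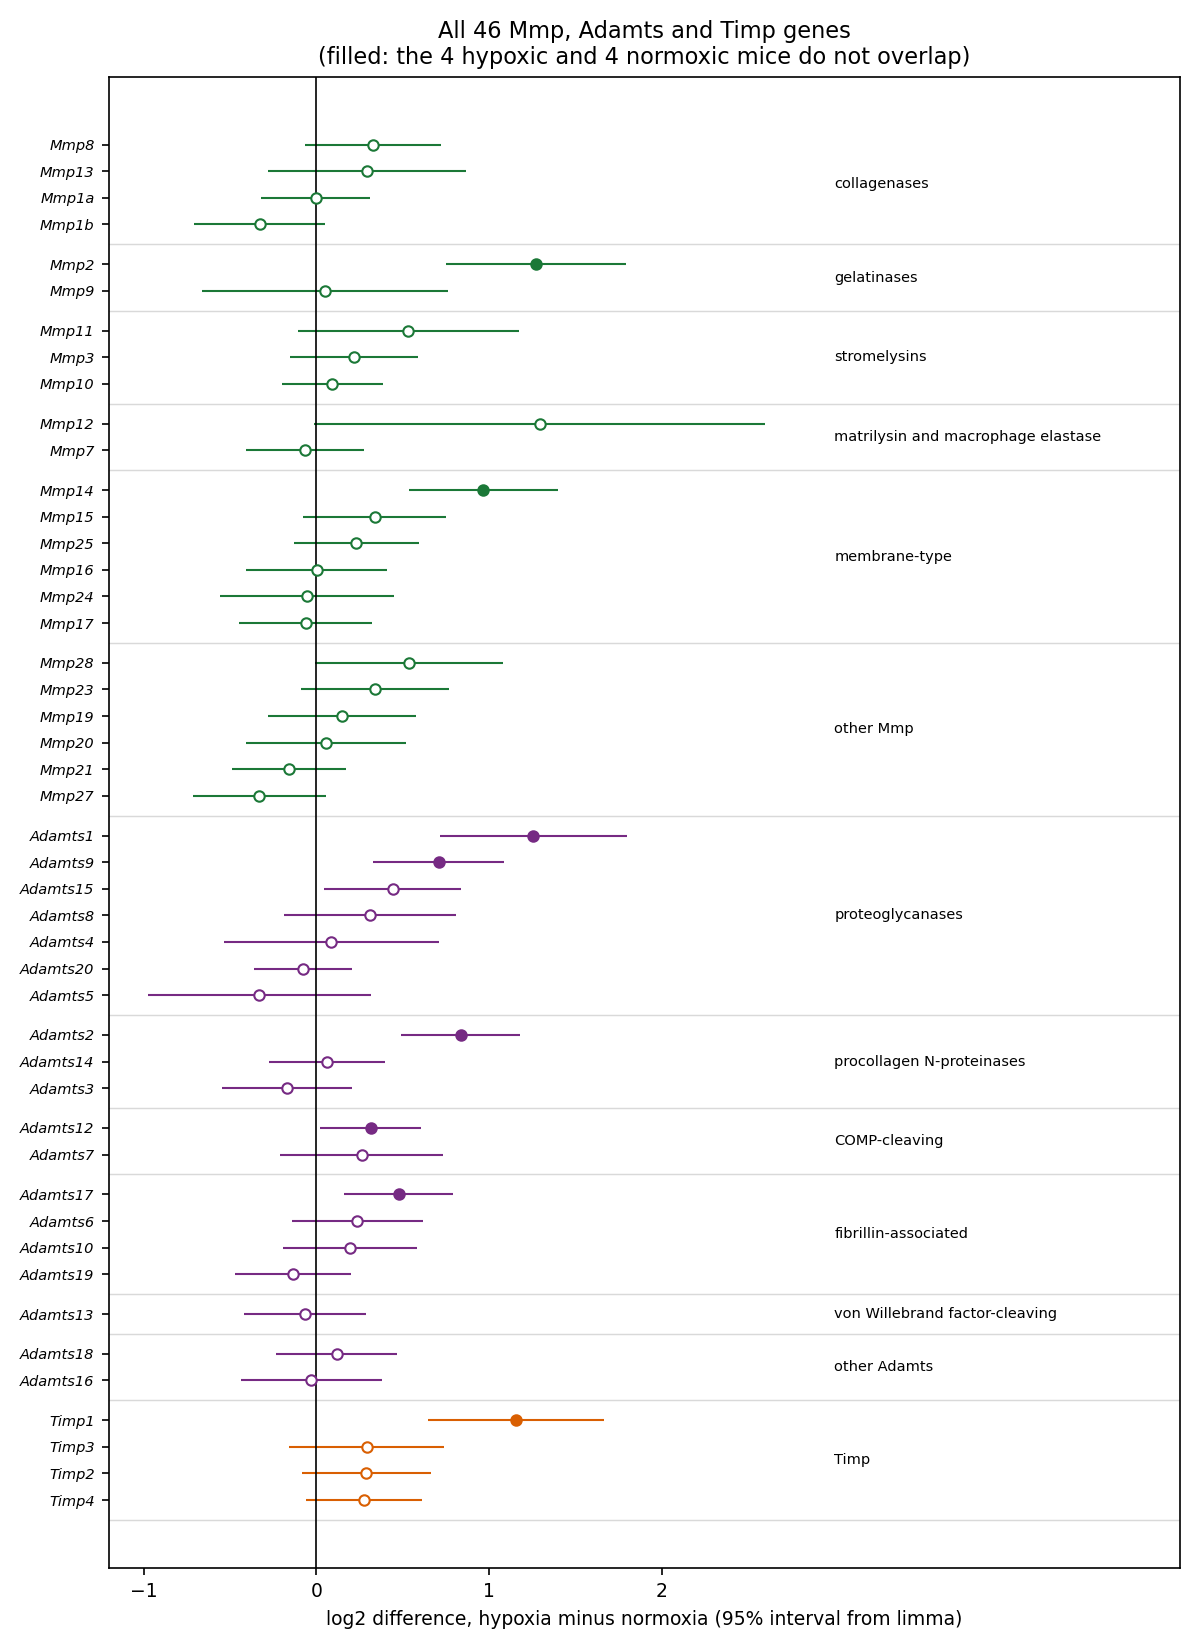
Log2 difference between hypoxic and normoxic lungs for all 46 genes, with limma's 95% interval, grouped by class (4 mice per group). Filled points mark the 8 genes whose hypoxic and normoxic mice do not overlap, all on the higher side, and the widest interval belongs to *Mmp12*, from -0.01 to 2.60.

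*Timp1* encodes a secreted inhibitor that is induced in many injured tissues. Its log2 intensity was 5.16, 5.41, 4.52 and 4.75 in hypoxic mice A, B, C and D, against 3.40, 4.13, 3.61 and 4.08 in normoxic mice F, G, H and I. The lowest hypoxic lung, mouse C, stood above the highest normoxic lung, mouse G. The means were 4.96 ± 0.40 in hypoxia and 3.81 ± 0.36 in normoxia (SD, n = 4 each), a difference of 1.16 ± 0.23 (SE) or 2.23-fold. Limma's adjusted p was 0.131 and a two-sided exact permutation p was 0.0286, the smallest that 4 against 4 mice can give. Groups that do not overlap always give this exact p, so it only restates their separation. It is reached by 3.01% of all probe sets in the higher and 1.61% in the lower direction.

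The other inhibitors had smaller differences with intervals that include 0. *Timp2*, which blocks Mmp2 and at low levels also helps Mmp14 to activate it, had log2 intensities of 10.34, 10.02, 10.30 and 9.98 in hypoxic mice A, B, C and D, against 9.85, 9.82, 10.20 and 9.61 in normoxic mice F, G, H and I, and normoxic mouse H reached into the hypoxic range. Its difference was 0.29, with limma's 95% interval from -0.08 to 0.66. *Timp3*, an inhibitor held in the matrix, had 10.17, 9.64, 9.96 and 10.19 in hypoxic mice A, B, C and D, against 9.21, 9.88, 10.02 and 9.69 in normoxic mice F, G, H and I. The groups overlapped, since mouse B lay below 3 normoxic mice, and the difference was 0.29 (95% interval -0.16 to 0.74). *Timp4*, the inhibitor of heart and other muscle, had 3.37, 3.56, 3.42 and 3.27 in hypoxic mice A, B, C and D, against 2.95, 2.96, 3.28 and 3.32 in normoxic mice F, G, H and I. Hypoxic mouse D lay below normoxic mice H and I, and the difference was 0.28 (95% interval -0.06 to 0.61).

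*Mmp2*, the gelatinase of fibroblasts and smooth muscle cells, had the smallest p of the members. Its log2 intensity was 9.17, 9.24, 8.90 and 8.60 in hypoxic mice A, B, C and D, against 8.02, 7.92, 7.87 and 7.02 in normoxic mice F, G, H and I. Normoxic mouse I stood 0.85 below the next lung of its group, and the groups stayed apart without it. The means were 8.98 ± 0.29 in hypoxia and 7.71 ± 0.46 in normoxia (SD, n = 4 each), a difference of 1.27 ± 0.24 (SE) or 2.42-fold, with limma's adjusted p = 0.0937 and an exact permutation p = 0.0286. Without mouse I the difference was 1.04. *Mmp9*, the gelatinase known from neutrophils and macrophages, had 5.34, 4.88, 5.51 and 4.72 in hypoxic mice A, B, C and D, against 5.80, 5.11, 5.27 and 4.07 in normoxic mice F, G, H and I. The hypoxic mice lay within the normoxic range, and the difference was 0.05 (95% interval -0.66 to 0.76).

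*Mmp14* encodes the membrane-type protease that activates pro-Mmp2 at the cell surface. It measured 7.91, 7.95, 7.64 and 7.64 in hypoxic mice A, B, C and D, against 6.95, 6.71, 7.25 and 6.37 in normoxic mice F, G, H and I. All hypoxic lungs lay above normoxic mouse H, the highest of its group. The difference was 0.97 ± 0.20 (SE) or 1.96-fold, with limma's adjusted p = 0.134 and an exact permutation p = 0.0286. None of the other 5 membrane-type members was at an unadjusted p under 0.05. *Mmp15* had a mean of 7.97 ± 0.30 in hypoxia and 7.64 ± 0.24 in normoxia (SD, n = 4 each), a difference of 0.34, while *Mmp25*, a membrane-type protease of leukocytes, differed by 0.23, *Mmp16* by 0.002, *Mmp24* by -0.06 and *Mmp17* by -0.06.

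*Adamts1*, a proteoglycan-cleaving protease also known to restrain the growth of vessels, had the highest difference of the *Adamts* genes. Its log2 intensity was 7.59, 7.50, 7.62 and 7.88 in hypoxic mice A, B, C and D, against 5.98, 6.38, 7.18 and 6.02 in normoxic mice F, G, H and I. The hypoxic lungs lay close together, with an SD of 0.16, while the normoxic lungs had an SD of 0.55, with mouse H as the highest. The difference was 1.26 ± 0.25 (SE) or 2.39-fold, with limma's adjusted p = 0.118 and an exact permutation p = 0.0286. Without normoxic mouse H it was 1.52, and limma's adjusted p was then 0.0205, below the threshold. In that fit 14 of all 25428 probe sets passed, against 0 with all 8 mice.

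*Adamts2* encodes the main N-proteinase of the fibrillar procollagens, which removes the amino-terminal propeptide before fibrils form. It measured 7.03, 7.27, 7.03 and 6.86 in hypoxic mice A, B, C and D, against 6.28, 6.39, 6.23 and 5.95 in normoxic mice F, G, H and I. Both groups were narrow, with SDs of 0.17 in hypoxia and 0.19 in normoxia, and did not overlap. The difference was 0.84 ± 0.16 (SE) or 1.79-fold, with limma's adjusted p = 0.0952 and an exact permutation p = 0.0286. The other members of this class had intervals that include 0. *Adamts3* had 2.75, 2.85, 3.29 and 3.16 in hypoxic mice A, B, C and D, against 2.98, 3.10, 3.35 and 3.31 in normoxic mice F, G, H and I, a difference of -0.17 (95% interval -0.55 to 0.20) with overlapping groups. *Adamts14* differed by 0.06 (95% interval -0.28 to 0.40).

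Among the remaining proteoglycanases, *Adamts9*, which cleaves versican and aggrecan and acts in the secretory pathway as well, had log2 intensities of 6.40, 6.59, 6.48 and 6.71 in hypoxic mice A, B, C and D, against 5.46, 5.81, 6.17 and 5.91 in normoxic mice F, G, H and I. Mouse F was the lowest lung, and no normoxic lung reached the hypoxic range. The difference was 0.71 ± 0.17 (SE) or 1.63-fold, with limma's adjusted p = 0.197 and an exact permutation p = 0.0286. *Adamts15*, a versican-cleaving protease, had 6.41, 6.63, 6.64 and 6.03 in hypoxic mice A, B, C and D, against 6.21, 6.12, 5.88 and 5.76 in normoxic mice F, G, H and I. Hypoxic mouse D lay inside the normoxic range, and the difference was 0.44 ± 0.18 (SE), with limma's adjusted p = 0.526 and an exact permutation p = 0.0857. *Adamts5*, the aggrecanase that lies next to *Adamts1* on chromosome 16, had 3.90, 3.79, 3.42 and 3.68 in hypoxic mice A, B, C and D, against 3.35, 4.11, 3.69 and 4.96 in normoxic mice F, G, H and I. Its difference of -0.33 (95% interval -0.98 to 0.32) rested on the high value of normoxic mouse I, and it was -0.02 without that mouse. Of the rest, *Adamts8* differed by 0.31, *Adamts4* by 0.09 and *Adamts20* by -0.08. Thus 5 of the 7 proteoglycanases had the higher mean in hypoxia and 3 were higher at an unadjusted p under 0.05. Over all 25428 probe sets, 12477 had the higher mean and 5.34% were higher at that level.

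*Adamts17*, one of the proteases tied to fibrillin microfibrils and to short stature with eye defects in humans, measured 5.58, 5.83, 5.41 and 5.53 in hypoxic mice A, B, C and D, against 5.14, 5.06, 5.16 and 5.07 in normoxic mice F, G, H and I. The normoxic lungs were tight, with an SD of 0.05, and all lay below the hypoxic ones. The difference was 0.48 ± 0.14 (SE), with limma's adjusted p = 0.327 and an exact permutation p = 0.0286. Of the other genes grouped with it, *Adamts6* differed by 0.24 and *Adamts10* by 0.20. *Adamts19*, its closest relative, had 3.31, 3.62, 3.60 and 3.78 in hypoxic mice A, B, C and D, against 3.75, 3.76, 3.55 and 3.79 in normoxic mice F, G, H and I, a difference of -0.14 (95% interval -0.47 to 0.20). *Adamts12*, which cleaves cartilage oligomeric matrix protein, had 4.41, 4.40, 4.27 and 4.23 in hypoxic mice A, B, C and D, against 3.93, 4.05, 4.06 and 4.01 in normoxic mice F, G, H and I. These groups did not overlap either, at a difference of 0.31 ± 0.13 (SE), with limma's adjusted p = 0.547, an exact permutation p = 0.0286 and a mean below the median of all probe sets. *Adamts7*, which shares that substrate, differed by 0.26 with overlapping groups, and *Adamts13*, which cleaves von Willebrand factor in the blood, by -0.07. The last members of the family, *Adamts18* and *Adamts16*, differed by 0.12 and -0.03.

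**Figure D2:**
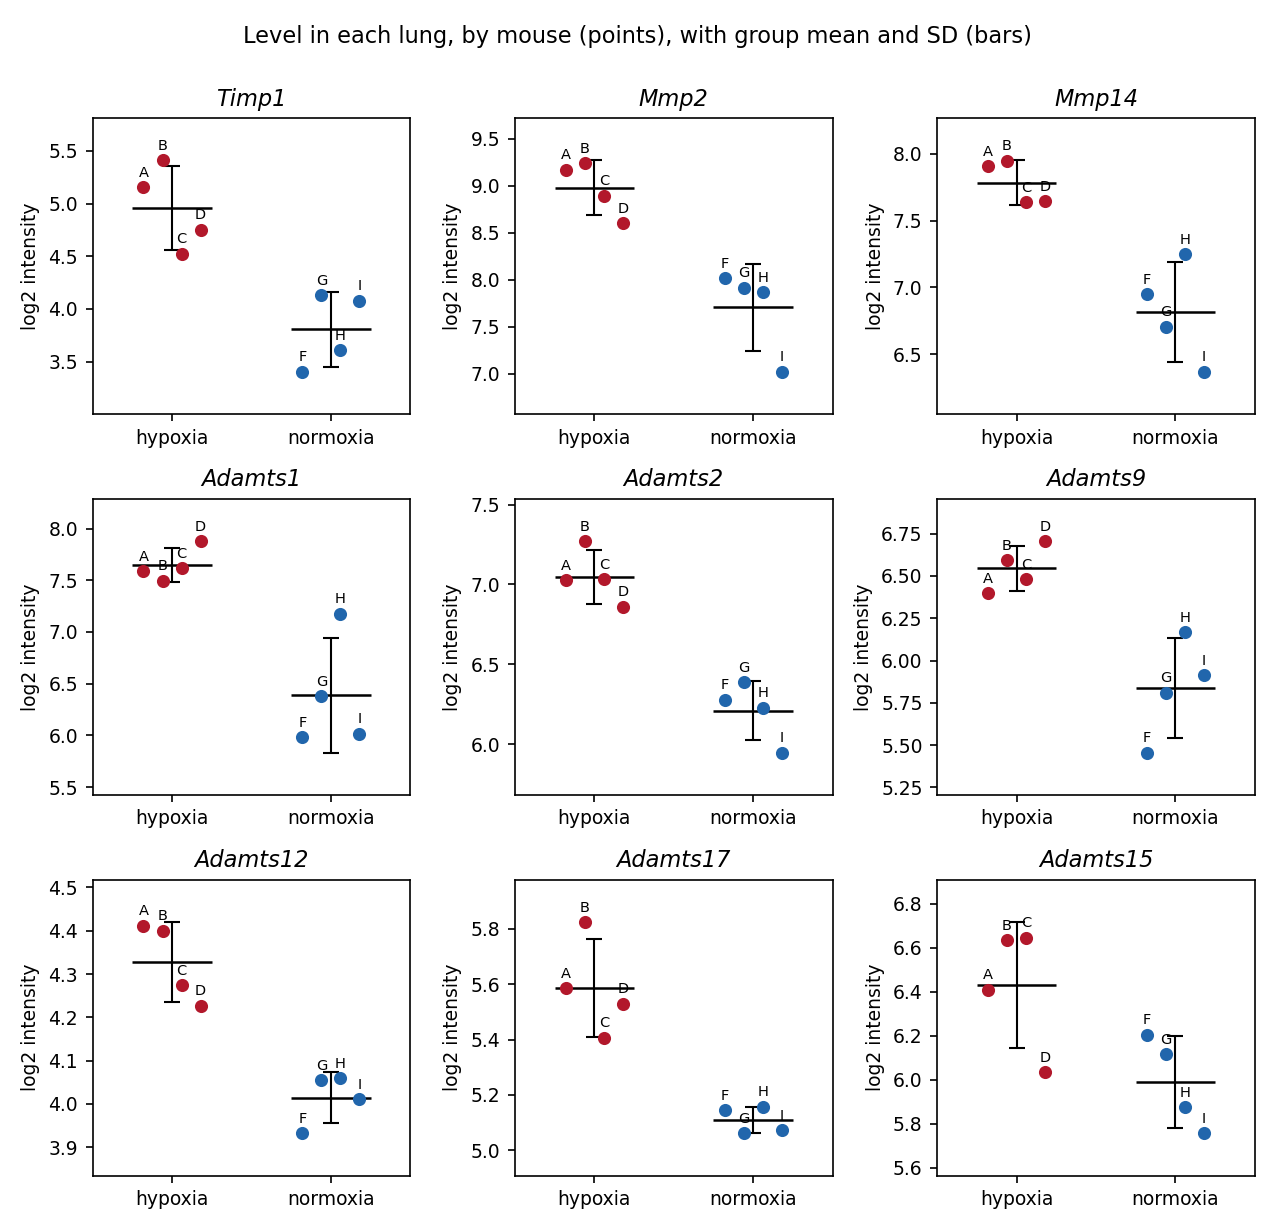
Log2 intensity of the 9 genes at an unadjusted p under 0.05 in each lung, with hypoxic mice A to D on the left of each panel and normoxic mice F to I on the right; lines and bars give the group mean and SD (n = 4 each), and each panel has its own axis. Groups are separate in 8 panels, and in *Adamts15* hypoxic mouse D lies among the normoxic mice.

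*Mmp12*, the macrophage elastase, had the largest mean difference of the *Mmp* genes and the widest spread. Its log2 intensity was 5.57, 5.84, 3.98 and 7.69 in hypoxic mice A, B, C and D, against 4.56, 4.82, 4.70 and 3.82 in normoxic mice F, G, H and I. Mice A, B and D lay above all normoxic lungs, and mouse C lay below 3 of them. The difference was 1.30 ± 0.60 (SE), with limma's adjusted p = 0.593 and an exact permutation p = 0.114, and it moved to 0.65 without hypoxic mouse D and to 1.89 without hypoxic mouse C. The mean of 11 alveolar macrophage markers was 6.43, 6.33, 6.29 and 6.53 in hypoxic mice A, B, C and D, against 7.01, 6.68, 6.95 and 7.01 in normoxic mice F, G, H and I, so every hypoxic lung was below every normoxic one. This list includes *Fabp4*, *Cidec* and *Pparg*, which adipocytes also express. Over the 8 other markers the mean was 6.56, 6.54, 6.38 and 6.73 in hypoxic mice A, B, C and D, against 6.51, 6.64, 6.62 and 6.82 in normoxic mice F, G, H and I, and the groups overlapped. The mean of 12 markers of monocytes and interstitial macrophages lay between 5.98 and 6.23 in hypoxia and between 5.84 and 6.31 in normoxia. The part of these cells in the *Mmp12* values was not tested.

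**Figure D3:**
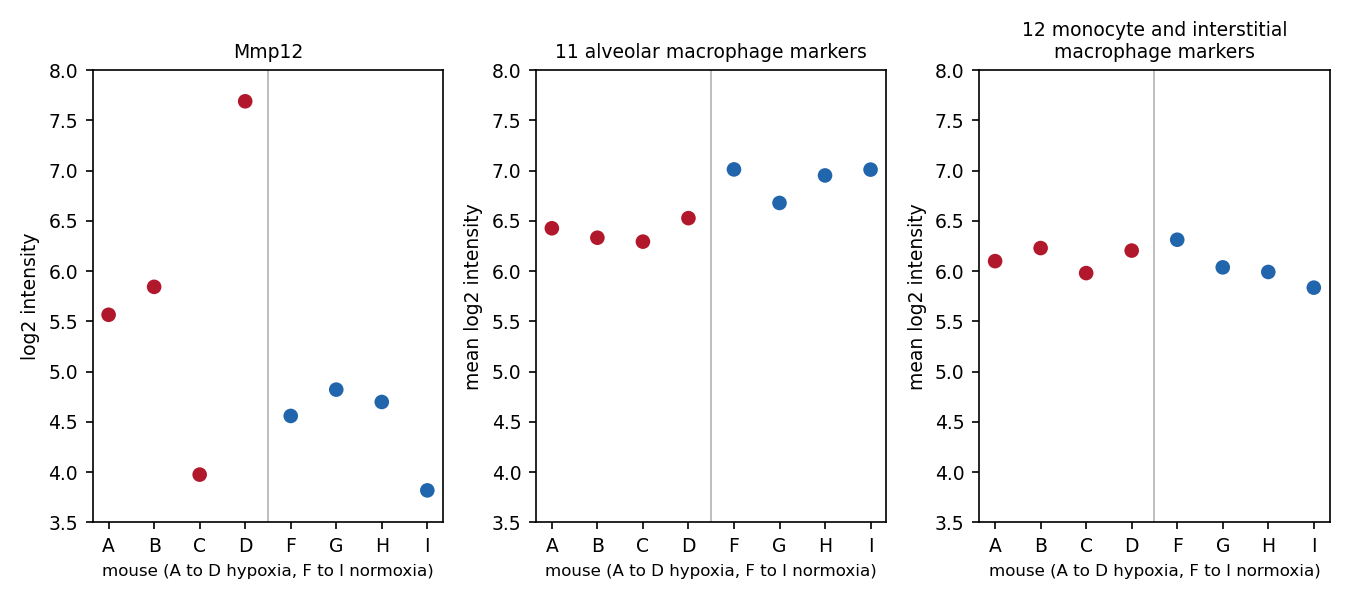
Log2 intensity of *Mmp12* (left), and mean log2 intensity of 11 alveolar macrophage markers (middle) and of 12 monocyte and interstitial macrophage markers (right), in hypoxic mice A to D and normoxic mice F to I. Among the hypoxic mice *Mmp12* is lowest in mouse C (3.98) and highest in mouse D (7.69). The alveolar macrophage mean is also lowest in mouse C (6.29) and highest in mouse D (6.53). A mean over many genes can vary less than a single gene, so the widths of the ranges cannot be compared. Of these 11 markers, 3 are also expressed by adipocytes.

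*Mmp12* is a member of a cluster of 10 neighbouring genes on chromosome 9, which also holds *Mmp13*, *Mmp1b*, *Mmp3*, *Mmp1a*, *Mmp10*, *Mmp8*, *Mmp27*, *Mmp20* and *Mmp7*. None of these 10 genes was at an unadjusted p under 0.05 in limma (smallest adjusted p = 0.593), their median difference was 0.08, and only *Mmp12* had a mean at or above the median of all probe sets. The 13 *Mmp* genes outside the cluster had a median difference of 0.23, with 2 higher at an unadjusted p under 0.05. The share of all probe sets higher at that level was 5.34%. Of these 13 genes, 9 were at or above the median of all probe sets. Within the cluster the collagenase *Mmp8* of neutrophils differed by 0.33, the collagenase *Mmp13* by 0.29, the stromelysin *Mmp3* by 0.22, *Mmp10* by 0.09, the enamel protease *Mmp20* by 0.06, *Mmp1a* by -0.004 and the matrilysin *Mmp7* by -0.07. *Mmp1b* had 1.68, 1.82, 1.60 and 1.61 in hypoxic mice A, B, C and D, against 1.99, 1.60, 2.10 and 2.33 in normoxic mice F, G, H and I. *Mmp27* had 3.26, 3.26, 3.23 and 3.57 in hypoxic mice A, B, C and D, against 3.42, 3.41, 3.81 and 3.99 in normoxic mice F, G, H and I. The differences were -0.33 for *Mmp1b* (limma's adjusted p = 0.661) and -0.33 for *Mmp27* (adjusted p = 0.665), and the groups overlapped through normoxic mouse G for *Mmp1b* and through hypoxic mouse D for *Mmp27*. *Mmp1b* is a near copy of *Mmp1a*, and the probe design was not checked for sharing between them.

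Outside the cluster, *Mmp28*, the epilysin of epithelia, had a mean of 6.28 ± 0.23 in hypoxia and 5.74 ± 0.54 in normoxia (SD, n = 4 each), and *Mmp11*, a stromelysin of stromal cells, had 6.46 ± 0.54 in hypoxia and 5.93 ± 0.48 in normoxia. Their differences of 0.54 and 0.53 had 95% intervals from -0.01 to 1.08 and from -0.11 to 1.18. *Mmp23* differed by 0.34 and *Mmp19* by 0.15. *Mmp21* had 2.90, 2.65, 2.86 and 2.98 in hypoxic mice A, B, C and D, against 2.88, 2.88, 3.25 and 3.01 in normoxic mice F, G, H and I, a difference of -0.16 (95% interval -0.49 to 0.17) with overlapping groups.

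**Figure D4:**
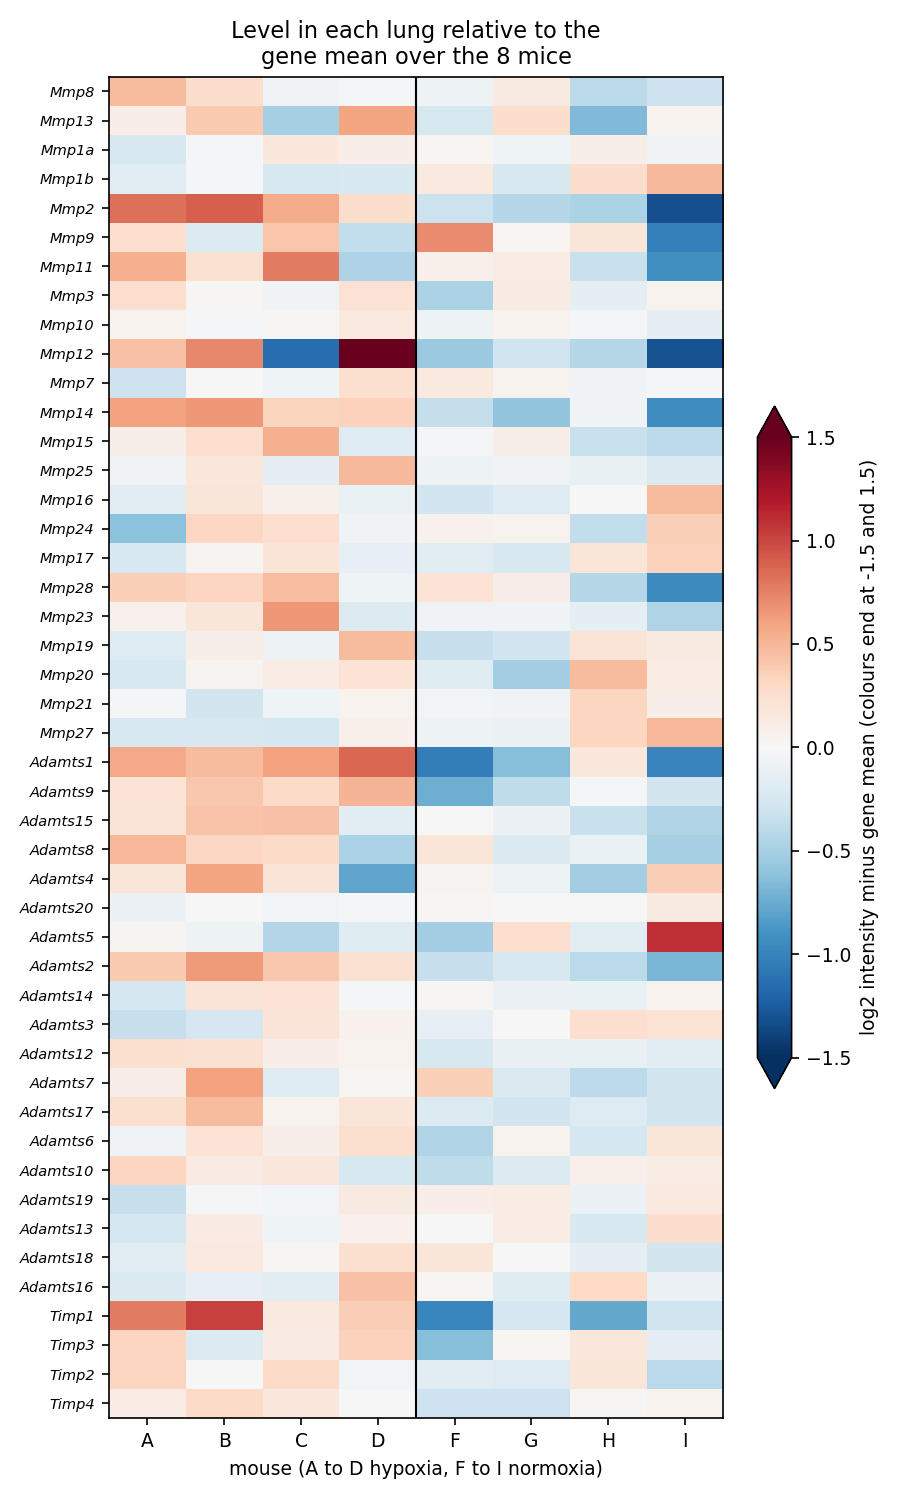
Log2 intensity of each of the 46 genes in each lung minus the gene's mean over the 8 mice, with hypoxic mice A to D left of the line and normoxic mice F to I right of it; red is above and blue below the mean, and colours end at -1.5 and 1.5. *Mmp2*, *Mmp14*, *Adamts1*, *Adamts2* and *Timp1* are red in the hypoxic columns, while *Mmp12* is dark blue in hypoxic mouse C and darkest red in hypoxic mouse D.

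The DNA before the start of each gene was described by its letters, which the choice of members did not use. RefSeq sequences of the 250 bases before the start were found for 32 of the 46 members (build GRCm38.p6), with 35 windows since *Mmp7*, *Mmp12* and *Mmp23* had more than 1 start. A gene was counted where any of its windows held the letters. The windows were searched on both strands for TGANTCA (the AP-1 motif), TATAAA (the TATA box) and GGGCGG (the GC box). They were also searched for ACGTG, a form of the core bound by hypoxia-inducible factors, and for GGAAA, the core bound by NFAT proteins. Other forms of the hypoxia-inducible factor core were not searched. The AP-1 letters were found for 8 of the 10 genes of the chromosome 9 cluster and for 0 of the 22 other members, against 7.82% of 27025 genes. TATAAA was found for 7 genes of the cluster and 2 others, against 14.3% of all genes, and GGGCGG for 0 genes of the cluster and 16 others, against 35.4% of all genes. The windows of the cluster held 37.2% to 53.2% G and C, and those of the other members 53.6% to 79.2%. ACGTG was found for 7 of the 32 members, *Timp1*, *Mmp14*, *Adamts17*, *Adamts3*, *Adamts18*, *Adamts20* and *Mmp7*, against 18.5% of all genes, and GGAAA for 16, against 58.8% of all genes. ACGTG can overlap itself on the opposite strand in CACGTG, as in *Adamts17* and *Mmp7*. A match is a run of letters and says nothing of whether a factor binds.

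The 120 bases before the start are printed for 4 genes that were separate between hypoxia and normoxia and, for comparison, for 3 genes of the cluster that were not. Sequences are from RefSeq, build GRCm38.p6, read 5′ to 3′ on the strand of the gene, and capitals mark the AP-1, hypoxia-inducible factor, TATA and GC box letters named above on either strand, with no marked match overlapping another. *Timp1* and *Mmp14* show ACGTG or its complement CACGT. GC boxes are marked in *Timp1*, *Mmp14*, *Adamts1* and *Adamts2*, and *Adamts1* also shows a TATA box. The 3 genes of the cluster each show an AP-1 motif followed by a TATA box.
Timp1, chrX:20870046-20870165, plus strand: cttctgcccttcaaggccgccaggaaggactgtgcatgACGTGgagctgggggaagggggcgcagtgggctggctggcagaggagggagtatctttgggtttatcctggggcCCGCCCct
Mmp14, chr14:54431478-54431597, plus strand: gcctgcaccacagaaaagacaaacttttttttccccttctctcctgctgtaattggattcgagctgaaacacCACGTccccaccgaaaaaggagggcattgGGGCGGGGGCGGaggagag
Adamts1, chr16:85803114-85803233, minus strand: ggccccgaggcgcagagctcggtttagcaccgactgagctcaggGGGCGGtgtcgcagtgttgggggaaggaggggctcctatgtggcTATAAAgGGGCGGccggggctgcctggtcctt
Adamts2, chr11:50601965-50602084, plus strand: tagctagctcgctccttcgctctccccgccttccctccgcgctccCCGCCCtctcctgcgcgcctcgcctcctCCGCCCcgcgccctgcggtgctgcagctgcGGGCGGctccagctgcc
Mmp3, chr9:7445702-7445821, plus strand: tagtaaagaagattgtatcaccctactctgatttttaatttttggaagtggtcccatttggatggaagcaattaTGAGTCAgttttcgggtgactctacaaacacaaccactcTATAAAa
Mmp13, chr9:7272394-7272513, plus strand: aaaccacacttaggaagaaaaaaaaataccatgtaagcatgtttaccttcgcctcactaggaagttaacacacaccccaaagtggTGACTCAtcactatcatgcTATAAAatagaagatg
Mmp10, chr9:7502222-7502341, plus strand: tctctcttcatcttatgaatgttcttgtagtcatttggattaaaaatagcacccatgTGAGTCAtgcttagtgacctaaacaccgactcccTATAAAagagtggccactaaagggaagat

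Genes that act with the members were followed in 6 lists, of which no gene passed the adjusted threshold in limma. Of 15 other inhibitors, 4 were higher and 0 lower with an unadjusted p below 0.05, set beside 5.34% and 3.15% of all probe sets. They include the protease inhibitor *Serpine2* with a difference of 0.88 (adjusted p = 0.157) and *Pcolce*, which enhances procollagen C-proteinases and was listed for its TIMP-like domain, with 0.67 (adjusted p = 0.346). Of 18 activators, 4 were higher and 0 lower, led by *Plat*, the tissue plasminogen activator, with 0.78 (adjusted p = 0.249), *Pcsk7*, a proprotein convertase, with 0.63 (adjusted p = 0.335) and *St14*, the membrane protease matriptase, with 0.63 (adjusted p = 0.476). Of 6 ADAMTS-like genes, 1 was higher and 0 lower. It is *Adamtsl2*, which binds fibrillin and lacks a protease domain, with 7.86, 8.22, 7.84 and 6.94 in hypoxic mice A, B, C and D, against 6.34, 6.64, 6.10 and 5.96 in normoxic mice F, G, H and I, a difference of 1.45 (adjusted p = 0.0918) without overlap.

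Of 10 ADAM proteases, membrane-anchored relatives that shed surface proteins, 2 were higher and 0 lower with an unadjusted p below 0.05. The shares of all probe sets were again 5.34% higher and 3.15% lower. *Adam15* had 8.94, 9.33, 8.84 and 8.76 in hypoxic mice A, B, C and D, against 7.99, 8.05, 7.78 and 7.40 in normoxic mice F, G, H and I. The groups were apart by more than either range, with a difference of 1.16 (limma's adjusted p = 0.0751), and *Adam8* differed by 0.49 (adjusted p = 0.401). Of 3 astacin proteases, *Bmp1*, the procollagen C-proteinase that works at the end opposite to that of Adamts2, was higher by 0.85 (adjusted p = 0.102). Of 13 substrates of ADAMTS proteases, 5 were higher and 1 lower. The microfibril protein *Fbn1* differed by 1.24 (adjusted p = 0.152), the proteoglycan *Bcan* by 0.71 (adjusted p = 0.376) and the small proteoglycan *Dcn* by -1.01 (adjusted p = 0.258), with overlapping ranges of 7.87 to 8.71 in hypoxia and 8.52 to 9.81 in normoxia.

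Markers of cells known to express several of these proteases were set beside the members, and none of the smooth muscle, fibroblast or endothelial markers passed the adjusted threshold in limma. At an unadjusted p below 0.05, 5.34% of all probe sets were higher and 3.15% lower in hypoxia. Of 12 smooth muscle and pericyte markers, 6 were higher and 0 lower at that level. Their mean lay between 6.57 and 7.21 in hypoxia and between 6.17 and 6.88 in normoxia. Of 15 fibroblast markers, 4 were higher and 2 lower, with a mean between 7.75 and 8.09 in hypoxia and between 7.49 and 7.82 in normoxia. Of 12 endothelial markers, 6 were higher and 0 lower, with a mean between 8.47 and 8.77 in hypoxia and between 8.13 and 8.49 in normoxia. These 3 list means overlapped between the groups, whereas the mean of 12 genes of dividing cells lay between 4.95 and 6.09 in hypoxia and between 3.77 and 4.45 in normoxia, with 12 higher. Of 15 adipocyte markers 12 were lower, of 15 heart muscle markers 7 were lower and of 15 skeletal muscle markers 6 were lower. Neutrophil markers, which bear on *Mmp8*, *Mmp9* and *Mmp25*, averaged 3.81 to 3.92 in hypoxia and 3.84 to 4.08 in normoxia, with 1 of 12 higher and 1 lower. Only 3 of these 12 were at or above the median of all probe sets, so the list says little about neutrophil number. The part of any of these cells in the members' differences was not tested. Without normoxic mice F and G, the lungs with the highest skeletal muscle markers, the differences were 1.12 for *Timp1*, 1.53 for *Mmp2*, 0.98 for *Mmp14*, 1.05 for *Adamts1*, 0.96 for *Adamts2*, 0.50 for *Adamts9*, 0.47 for *Adamts17* and 0.29 for *Adamts12*.

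The members did not vary alike from mouse to mouse. The median SD over the 46 members was 0.21 in hypoxia and 0.27 in normoxia, and the widest SD was that of *Mmp12* at 1.52 in hypoxia and that of *Mmp9* at 0.73 in normoxia. Normoxic mouse I was the lowest of its group for 15 members and the highest for 14. Hypoxic mouse D was the lowest of its group for 14 members and the highest for 16. With each mouse left out in turn, 35 of the 46 members kept the sign of their difference. The differences of *Adamts1*, *Adamts2*, *Adamts9*, *Adamts17*, *Mmp2*, *Mmp14* and *Timp1* were at an unadjusted p under 0.05 in limma without each mouse, while those of *Adamts12* and *Adamts15* were not without some of them. Without hypoxic mouse D, 14 members were higher at an unadjusted p under 0.05, against 6.68% of all probe sets.

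**Figure D5:**
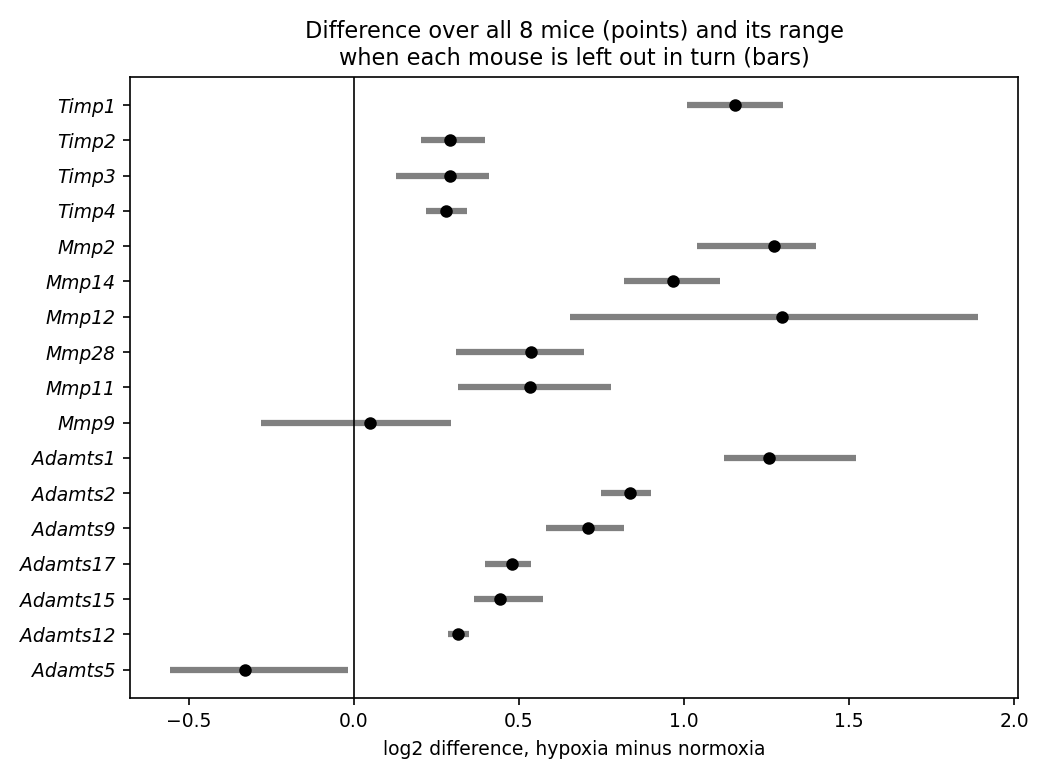
Log2 difference between hypoxic and normoxic lungs over all 8 mice (points) and the range of the difference with each mouse left out in turn (bars) for 17 of the genes. The range is 1.04 to 1.40 for *Mmp2*, 1.01 to 1.30 for *Timp1* and 0.65 to 1.89 for *Mmp12*, and that of *Mmp9* runs from -0.28 to 0.30.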

How the data were processed

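Lung RNA of 8 mice, 1 lobe and 1 array per mouse, was analysed. The authors deposited log2 intensities. Their methods give quantile normalization and a custom chip definition (version 22, genes by Entrez ID), and RMA is named in the submitters' processing notes with no version. How background was corrected, and which arrays were normalized together, is not given in the sources used here. Array medians lay between 4.17 and 4.20. Of 46 members, the array annotation table named all but 2, *Mmp15* and *Adamts2*, which were named by Entrez ID from the RefSeq gene table of GRCm38.p6. All 25428 probe sets were fitted with limma 3.58.1 (R 4.3.3), with no filter on brightness, and the procedure was tested on simulated data. Single members were also compared by an exact two-sided permutation test over 70 assignments. The mice of a group are separate animals, their letters pair nothing, and their number limits the precision. Tables and plots used Python 3.11.15 with pandas 2.3.3 and matplotlib 3.10.9.

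The 3 families, the gene lists and the marker lists were chosen with earlier results of these data known. Within the families the members were taken by symbol alone. Values per mouse are given for all *Timp* genes, members without overlap or at an unadjusted p under 0.05, and the 3 members of the *Mmp* and *Adamts* families with the smallest p in each direction, and partner lists name up to 3 genes with the smallest p. Of the genes that this rule takes, 1 is not reported here. *Mmp9* was added after its values were seen. Alternatives were another normalization or centring, a restriction to the brighter probe sets, the methods' one-way ANOVA, other variance models, weights for the arrays, a restriction to named probe sets, and leaving out each mouse. Leaving out normoxic mice F and G, and the alveolar macrophage list without genes of adipocytes, were chosen after seeing the data. The ANOVA without moderation uses the same 4 values per group as limma.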

Additional observations from a re-analysis of the deposited data

Results flagged for a closer look

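In groups of 4 mice, a value was marked where its gap to the nearest other mouse took up more of the range of the group than Dixon's 95% limit allows. Of the 92 groups of the 46 members, 3 were marked, and chance marks about 1 in 20. Hypoxic mouse D stood above its group for *Adamts16*, at 3.86 on the log2 scale against 3.20 to 3.30 in the other hypoxic mice. The same mouse stood above its group for *Mmp27*, at 3.57 against 3.23 to 3.26 in the other hypoxic mice. Normoxic mouse I stood below its group for *Mmp2*, at 7.02 against 7.87 to 8.02 in the other normoxic mice.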

How the results depend on the processing

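The number of members past limma's adjusted p of 0.05 was 1 without dim probe sets (*Mmp2*, adjusted p = 0.0453). How many of all the brighter probe sets passed in that fit is not given here. With each mouse left out, the number of members was 0 to 1. The 1 was *Adamts1* without normoxic mouse H, where 14 of all 25428 probe sets passed. Members higher at an unadjusted p under 0.05 numbered 7 to 14 with each mouse left out, the highest without hypoxic mouse D. Members lower at that level numbered 1 with an intensity trend and robust variance (*Mmp1b*), 0 to 1 with each mouse left out and 2 without normoxic mice F and G (*Mmp1b* and *Mmp27*), against 5.76% of all probe sets in that setting. Members without overlap numbered 8 to 15 higher and 0 to 2 lower with each mouse left out, with 15 higher without hypoxic mouse D (6.98% of all probe sets) and 2 lower without normoxic mouse G (3.94%). They numbered 13 higher and 5 lower without normoxic mice F and G, against 10.9% and 11.1% of all probe sets. The median difference of the *Mmp* family was 0.44 over its 10 brighter members and 0.10 to 0.21 with each mouse left out. That of the *Adamts* family was 0.44 over its 9 brighter members and 0.11 to 0.30 with each mouse left out. For the *Timp* family it was 0.25 to 0.40 with each mouse left out. Brightness again takes in the hypoxic values. Every brighter *Mmp* gene also had a normoxic mean above all array medians, the lowest being 4.28 for *Mmp24*. In the *Adamts* family, *Adamts6* counted as brighter through its hypoxic values, with a mean of 4.08 in normoxia and 4.32 in hypoxia. The median of the brighter *Adamts* members is therefore partly set by that choice.

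Members with small differences changed sign. With each mouse left out, the differences ranged from -0.0946 to 0.36 for *Adamts4*, from -0.16 to 0.01 for *Adamts13*, from -0.000262 to 0.16 for *Adamts14*, from -0.18 to 0.0648 for *Adamts16*, from -0.0558 to 0.0748 for *Mmp1a*, from -0.16 to 0.029 for *Mmp7*, from -0.28 to 0.30 for *Mmp9*, from -0.093 to 0.16 for *Mmp16*, from -0.15 to 0.0433 for *Mmp17*, from -0.10 to 0.22 for *Mmp20* and from -0.19 to 0.14 for *Mmp24*. *Mmp1a* was at 0.013 after quantile normalization again, 0.00387 after median centring and 0.010 with array weights, which also gave -0.014 for *Mmp9*, 0.029 for *Mmp17* and 0.0238 for *Mmp24*. Without normoxic mice F and G, the differences were 0.00439 for *Mmp7*, -0.24 for *Mmp16*, -0.0947 for *Mmp19* and -0.26 for *Mmp20*. The causes were not tested. No paired analysis was possible because the letters of the mice are not shared between the groups. With 4 mice per group, the exact test of 1 member cannot go below 0.0286, and 24 of the 46 members had a mean below the median of all probe sets, 9 of the 10 genes of the chromosome 9 cluster among them.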
